A study of Mus musculus with 6 samples.

Results

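The genes described here encode the antioxidant enzymes of the glutathione and thioredoxin systems, the superoxide dismutases and catalase, the metallothioneins, and the transcription factor NRF2 (gene Nfe2l2) with its inhibitor Keap1 and several of its known targets. They were taken from a list of 41 genes, and a gene counted as measured when the array had at least 1 probe set (a group of short probes read as 1 value) that the platform annotation ties to that gene alone. This held for 38 of the 41 genes, with 77 probe sets among the 45037 tested and 18194 genes in all. Prdx1, Prdx5 and Prdx6 had no such probe set.

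The samples were RNA from the left ventricular apex of 6 female littermate mice aged 8 weeks, on a mixed background of C57B6 and B6129, with 1 Affymetrix array per mouse. In the 3 PTIP knockout mice, 1 copy of Paxip1 (which encodes PTIP) was floxed and the other null, and a transgene expressed Cre fused to a modified estrogen receptor under the alpha myosin heavy chain promoter, which is active in cardiomyocytes. The 3 controls (PTIP+) had 1 floxed and 1 wild-type copy, with no Cre named in their labels. All 6 mice received tamoxifen at 20 mg/kg. The labels speak both of hearts taken 5 days after injection and of treatment over 5 days, so the number of injections is not settled. Cre, the null allele and the induced deletion all go with the knockout group and cannot be told apart. Cells of the apex other than cardiomyocytes keep their floxed allele.

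Cells reduce hydrogen peroxide and lipid peroxides with glutathione, through glutathione peroxidases, and with thioredoxin, through peroxiredoxins, and glutathione transferases couple glutathione to reactive compounds. NRF2 is held by Keap1 and degraded in unstressed cells. When released, it pairs with small Maf proteins and switches on genes for glutathione synthesis, thioredoxin reductase, sulfiredoxin and quinone reductase. The heart relies on these systems because its dense mitochondria produce superoxide and hydrogen peroxide.

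None of the 38 measured antioxidant genes passed the test between knockout and control mice, and neither did any of their 77 probe sets. The gene with the smallest p was Srxn1, which encodes sulfiredoxin, the enzyme that restores overoxidised peroxiredoxins. Its value was 1.56-fold higher in the knockout mice, and the groups were separate on all 4 of its probe sets. Sesn3, a sestrin gene known as a FoxO target, was 1.38-fold higher with separate groups on both of its probe sets. Gpx3, the secreted plasma glutathione peroxidase, was 1.42-fold lower, and Gstm2, a mu class glutathione transferase, was 1.23-fold lower. On the brightest probe set of each gene, NRF2, Keap1, both thioredoxins, the superoxide dismutases and catalase differed by -0.07 to 0.16 on the log2 scale. Each of these differences had a 95% interval that includes 0.

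Values are log2 expression after RMA, so a difference of 1 is a doubling. The test was limma across all 45037 probe sets with Benjamini-Hochberg adjustment, and a gene passed at an adjusted p under 0.05. Each gene is given by its representative probe set, the one with the highest mean over the 6 arrays. Over all genes 0.286% passed (52 of 18194), and over all probe sets 0.191%. The smallest limma adjusted p of any antioxidant probe set was 0.193. At an unadjusted limma p under 0.05 there were 5 of 38 antioxidant genes, 3 higher and 2 lower (13.2%), where all genes gave 9.27%. Groups that did not overlap were found for 8 of 38, 6 higher and 2 lower, which is 21.1% against a background of 16.0%. Both shares lie near the background. A p that misses the threshold does not show that groups are alike, so intervals are given. A single gene was also tested with an exact permutation test of its 6 values, two-sided, whose smallest possible p for 3 against 3 mice is 0.1. In RNA from whole tissue, fewer cells of a type and less RNA per cell cannot be told apart.

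As a check of the labels, 3 of the 4 Paxip1 probe sets were lower in the knockout mice and passed, with differences from -1.83 to -1.54 (limma adjusted p from 0.0240 to 0.0377). The fourth, which is the representative one, differed by -0.95 (limma adjusted p = 0.106). By the rule used for genes, the targeted gene itself thus did not pass. Esr1, whose sequence the transgene carries in modified form, read 12.54, 12.57 and 12.59 in knockout hearts on 1421244_at. The controls read 8.49, 6 and 5.14, and the Esr1 rise passed (limma adjusted p = 0.0476); this gene was picked after its values were seen. Array medians lay between 5.15 and 5.26. The cardiomyocyte markers Myh6, Tnnt2, Tnni3, Actc1, Myl2 and Ttn differed by -0.06 to 0.01, and their summed linear level was 68323 to 71298 in knockout hearts against 70273 to 71353 in controls. Control 1 stood apart, as it did for Esr1. It had the lowest value of all 6 mice for 17 of the 38 antioxidant genes (44.7%), against 20.3% of all genes, and its actin 3' minus 5' difference of 1.85, which grows as RNA degrades, was the highest, where the other mice had 1.17 to 1.64. The part of RNA quality in these values was not tested.

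By sign, 34 of the 38 genes were higher in the knockout mice, with a median difference of 0.10, where the median over all genes was 0.02. Over all genes 10024 of 18194 were higher, a count not made for the other settings that follow. With a renewed quantile normalization 32 of the 38 were higher, with array weights 29, and with the mean of each gene's probe sets 30. The median was 0.057 without control 1, when 26 genes were higher and 12 lower, and 0.064 without knockout 3, when 28 were higher. With each array centred on its median it was 0.144. The median over all genes was 0.037 without control 1 and 0.063 with centred arrays. No test was made over the list.

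**Figure D1:**
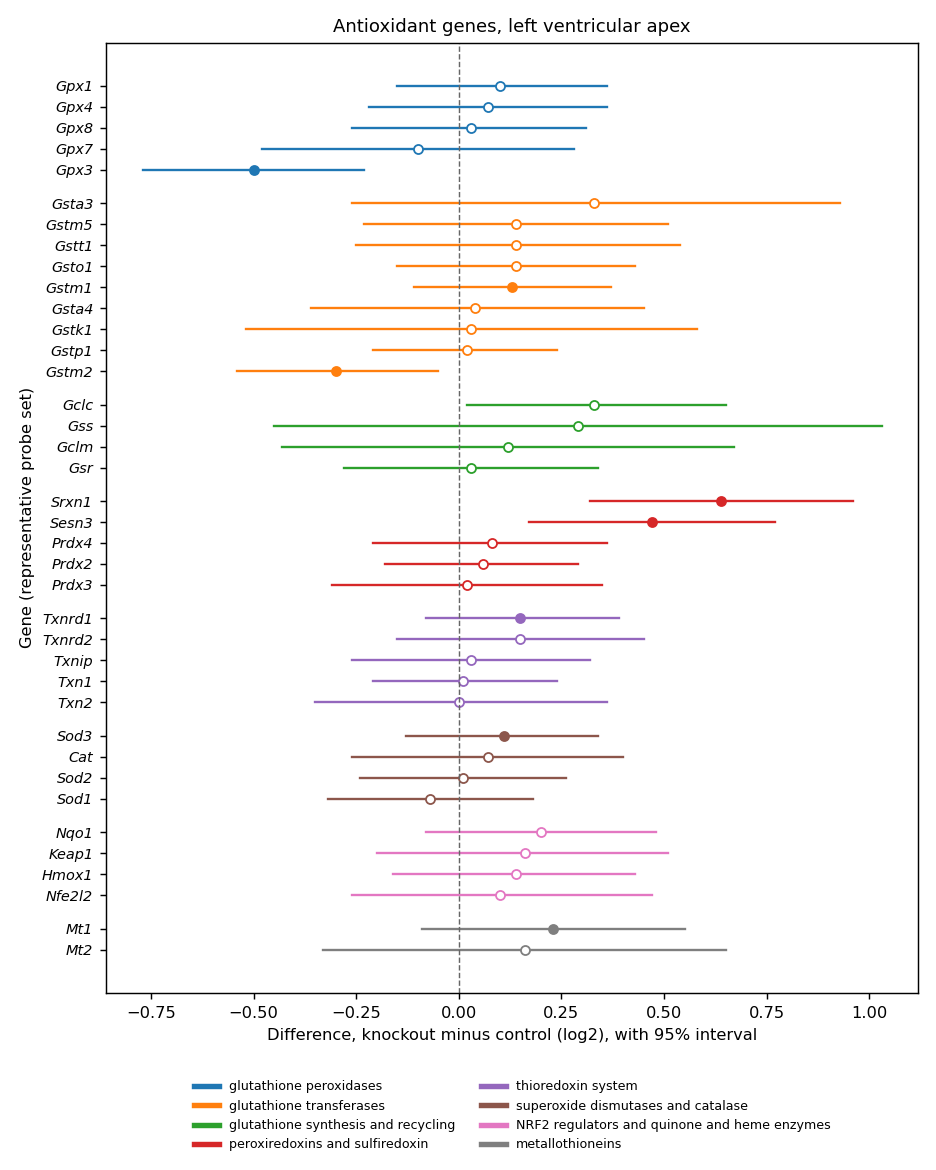
Difference in log2 expression, knockout minus control, for the 38 measured antioxidant genes on their representative probe sets, with 95% intervals from limma and coloured by family. Filled points mark the 8 genes whose 3 knockout and 3 control values do not overlap; Srxn1 (0.64) and Gpx3 (-0.50) lie farthest from 0.

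The promoters of Srxn1, of Gpx3 and of Osgin1, the NRF2-linked gene described further on, are shown because these genes had the smallest p among the higher and the lower antioxidant genes and among the further pathway genes. The sequences are RefSeq's for GRCm38.p6, the 250 bases before the start site, all on the plus strand: chr2:152105274-152105523 for Srxn1, chr11:54902604-54902853 for Gpx3 and chr8:119436897-119437146 for Osgin1. Capitals mark matches on either strand to TGANTCA, the core of sites for AP-1 and for NRF2 and Maf dimers, or to TGACNNNGC, the core of the antioxidant response element. The motifs can overlap, as they do at 1 place in the Mt2 window, and were chosen after these windows had been read.
Srxn1: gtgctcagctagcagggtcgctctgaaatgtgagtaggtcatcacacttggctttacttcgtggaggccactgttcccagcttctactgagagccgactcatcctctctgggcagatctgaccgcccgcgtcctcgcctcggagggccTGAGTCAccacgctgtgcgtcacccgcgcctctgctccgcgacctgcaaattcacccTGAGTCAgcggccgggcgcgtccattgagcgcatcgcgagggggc
Gpx3: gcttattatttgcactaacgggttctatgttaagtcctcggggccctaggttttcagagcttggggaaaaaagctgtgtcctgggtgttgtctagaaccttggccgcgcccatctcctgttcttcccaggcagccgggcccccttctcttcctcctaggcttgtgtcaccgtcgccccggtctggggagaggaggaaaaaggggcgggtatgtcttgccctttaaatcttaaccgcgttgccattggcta
Osgin1: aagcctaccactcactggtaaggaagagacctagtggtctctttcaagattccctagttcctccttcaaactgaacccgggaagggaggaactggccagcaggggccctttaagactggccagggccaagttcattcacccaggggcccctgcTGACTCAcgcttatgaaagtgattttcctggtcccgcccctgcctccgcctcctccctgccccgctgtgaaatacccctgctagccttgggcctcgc

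The Srxn1 window holds TGANTCA 2 times, starting 102 and 45 bases before the start site, and the Osgin1 window holds it once, 97 bases before. The Gpx3 window holds neither motif, nor does that of Sesn3. TGANTCA was found for 5 of 35 antioxidant genes with a promoter entry (14.3%) and for 7.82% of 27025 genes with an entry. Prdx1, which had no probe set of its own, is among the 5. In the group of other NRF2 regulators and targets, which holds Osgin1, TGANTCA was found for 2 of 22 genes (9.09%). TGACNNNGC was found for 8 of 35 antioxidant genes (22.9%), among them Gclm, Txnrd1, Mt2 and Nfe2l2 itself. It was found for 6 of the 22 other NRF2 regulators and targets (27.3%), and for 11.5% of all genes. These matches describe the letters of the windows and show no binding.

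Srxn1 and Sesn3 were higher in every knockout mouse than in every control. Srxn1 on probe set 1419942_at read 9.37, 9.70 and 9.48 in knockouts 1 to 3 and 8.86, 9.04 and 8.74 in controls 1 to 3. The lowest knockout thus lay above the highest control, and the means were 9.52 ± 0.17 and 8.88 ± 0.15 (SD, n = 3 each). The difference was 0.64 (SE 0.14, 95% interval 0.32 to 0.96, limma adjusted p = 0.193), with an exact permutation p of 0.1. The other Srxn1 probe sets 1426875_s_at, 1451680_at and 1425351_at differed by 0.61, 0.73 and 0.49 (limma adjusted p from 0.201 to 0.265). On 1425351_at, which is dimmer, the controls read 4.17, 4.17 and 4.22 and the knockouts 4.61, 4.80 and 4.62. Probe sets of 1 gene read the same RNA of the same mice and are not further replicates. Knockout 2 was the highest mouse on all 4. Leaving out any single mouse left a Srxn1 difference of 0.55 to 0.72 on the representative probe set. The unadjusted limma p was then 0.00252 to 0.00892, and the limma adjusted p 0.25 to 0.476.

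Sesn3 on 1449303_at read 9.79, 9.57 and 9.53 in knockout hearts against 9.31, 9.05 and 9.12 in control hearts. The groups did not overlap, with means of 9.63 ± 0.14 and 9.16 ± 0.14 (SD, n = 3 each). The difference was 0.47 (SE 0.13, 95% interval 0.17 to 0.77, limma adjusted p = 0.309). The other Sesn3 probe set, 1453313_at, read 6.13, 6.31 and 6.23 against 6.05, 5.93 and 5.62, a difference of 0.35 (limma adjusted p = 0.511). Its groups came close at knockout 1 and control 1 but did not overlap.

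The peroxiredoxins, which reduce peroxides with electrons from thioredoxin, had small differences on their representative probe sets. Prdx2, abundant in the cytosol and in red cells, differed by 0.06, mitochondrial Prdx3 by 0.02 and Prdx4 of the endoplasmic reticulum by 0.08, with 95% intervals that together span -0.31 to 0.36. The probe sets of Prdx2 were unlike each other. On 1430979_a_at, named after its values were seen, Prdx2 read 10.33, 10.81 and 9.80 in knockout hearts against 9.86, 9.43 and 9.43 in control hearts. Knockout 3 lay below control 1 there, and the difference was 0.74 (SE 0.26, limma adjusted p = 0.444). The erythroid marker Alas2 read 8.06, 8.70 and 8.40 in knockout hearts against 7.99, 8.71 and 7.83 in control hearts, so its groups overlapped, and Hba-a1, the only other measured marker of 6 on that list, was near the floor of the scale at 1.80 to 2.33. The part of blood in the Prdx2 value was not tested.

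Among the glutathione peroxidases, Gpx3 alone had groups that did not overlap. It read 11.62, 11.72 and 11.47 in knockout hearts against 12.10, 12.19 and 12.03 in control hearts. Every knockout lay below every control, with means of 11.61 ± 0.13 and 12.11 ± 0.08 (SD, n = 3 each). The difference was -0.50 (SE 0.11, 95% interval -0.77 to -0.23, limma adjusted p = 0.222). With a variance trend in the limma prior, which allows bright probe sets a smaller spread, Gpx3 passed (limma adjusted p = 0.0349) and was the only antioxidant gene to do so. The share of all genes that passed with this trend was not counted, so the pass cannot be set against a background. Leaving out 1 mouse at a time gave -0.56 to -0.43 for Gpx3. The unadjusted limma p was then 0.00421 to 0.0134, and the limma adjusted p 0.26 to 0.5.

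The other 4 glutathione peroxidases differed by -0.10 to 0.10. Gpx1, the main cytosolic enzyme, differed by 0.10 (95% interval -0.15 to 0.36). Gpx4, which reduces lipid hydroperoxides in membranes and protects against ferroptosis, differed by 0.07 (95% interval -0.22 to 0.36). Gpx7 and Gpx8 of the endoplasmic reticulum differed by -0.10 and 0.03. None of these passed, and their 95% intervals together run from -0.48 for Gpx7 to 0.36 for Gpx1 and Gpx4.

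Of the 9 glutathione transferases, 8 were higher and 1 lower by sign, and none passed. Gstm2 read 11.09, 11.00 and 11.19 in knockout hearts against 11.36, 11.39 and 11.41 in control hearts. These groups did not overlap, and the controls lay close together (SD 0.02). The difference was -0.30 (SE 0.10, 95% interval -0.54 to -0.05, limma adjusted p = 0.448). Its neighbour in the mu class, Gstm1, read 12.45, 12.38 and 12.39 against 12.19, 12.32 and 12.33, a difference of 0.13 in the other direction (limma adjusted p = 0.792). The groups of Gstm1 were separate by little, and its other probe sets differed by 0.10 to 0.15. The mu class genes are near copies of one another, so probe sets may share signal between them, and the difference between Gstm1 and Gstm2 was not tested.

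The remaining transferases had overlapping groups. Gsta3 differed by 0.33 with a wide 95% interval of -0.26 to 0.93, and Gsta4, which removes the lipid aldehyde hydroxynonenal, by 0.04. Gstm5 differed by 0.14, Gstt1 of the theta class by 0.14 and Gsto1 of the omega class by 0.14. Gstp1 means were 12.85 ± 0.02 for knockouts and 12.83 ± 0.01 for controls (SD, n = 3 each), which differ by 0.02 (95% interval -0.21 to 0.24). Gstk1, of mitochondria and peroxisomes, differed by 0.03, with control 1 at 11.07 and the other 5 mice from 11.50 to 11.95. For 6 of the 9 transferases control 1 was the lowest of all mice, and without it 5 transferases were higher and 4 lower, with a median of 0.02 in place of 0.13. Without knockout 1 the median was 0.06.

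Markers of macrophages were lower in the knockout mice alongside Gpx3 and Gstm2. All 6 measured markers were lower by sign, 3 of them with groups that did not overlap (Adgre1, Csf1r and Mrc1), where 6.57% of all genes were separate and lower. None passed, with a median difference of -0.33 and a smallest limma adjusted p of 0.288. Without knockout 2 the median was -0.20 and 1 of the 6 was higher. The summed linear level of the 6 was 3382 to 4719 in knockout hearts against 5003 to 5309 in control hearts. None of them was near the floor of the scale. The 3 mesothelial markers were lower by sign as well, with a summed level of 283 to 884 against 501 to 875. That direction came from knockouts 1 and 2: the median was -0.81 with all mice, -0.21 without knockout 2 and -1.46 without knockout 3, and on knockout 3 and the controls alone 2 of the 3 were higher. Fibroblast sums were 12520 to 13394 against 12554 to 13577, and endothelial sums 7023 to 7845 against 6489 to 7851. The part of these cells in the lower values was not tested.

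**Figure D2:**
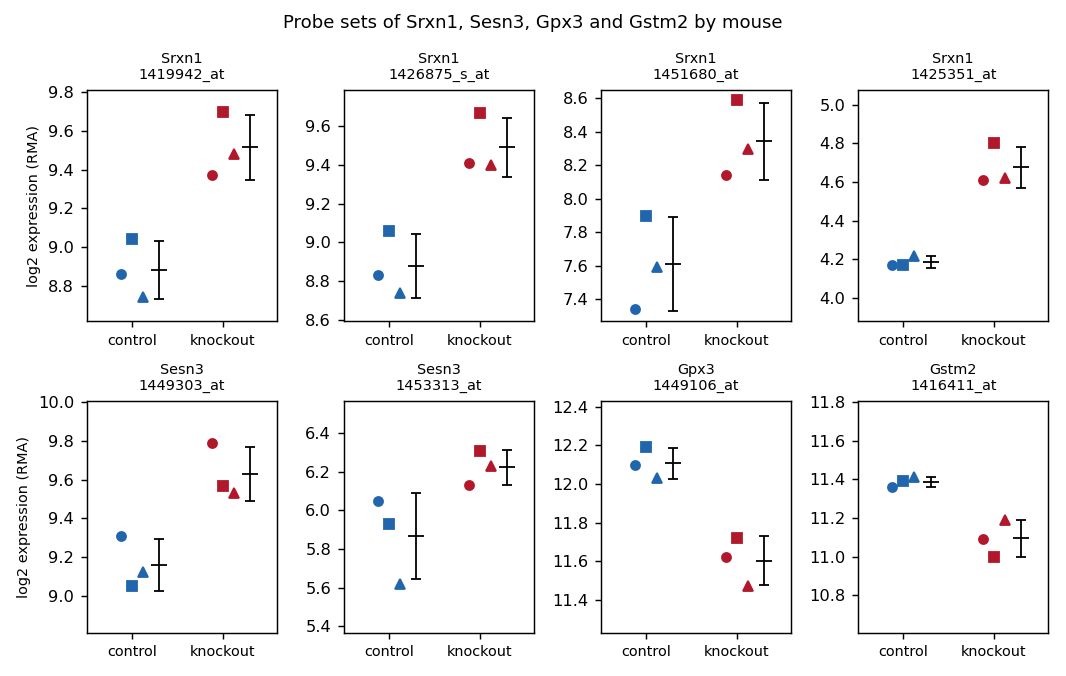
Log2 expression by mouse for every probe set of Srxn1, Sesn3, Gpx3 and Gstm2, each panel with its own axis; circles, squares and triangles are mice 1, 2 and 3 of a group, and black bars give the mean and SD of the 3. In all 8 panels the knockout and control values are separate, higher in the knockout mice for Srxn1 and Sesn3 and lower for Gpx3 and Gstm2.

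Glutathione synthesis and recycling genes were all higher by sign, with a median of 0.20 over 4 genes and none passing. Without knockout 2 the signs were 2 higher and 2 lower with a median of 0.02, without knockout 1 the median was 0.34, and without control 3 it was 0.08. Gclc, the catalytic subunit of the enzyme that limits glutathione synthesis, read 7.52, 7.32 and 7.53 in knockout hearts against 7.05, 7.34 and 6.98 in control hearts. Control 2 lay just above knockout 2, so the groups overlapped. The Gclc difference was 0.33 (SE 0.14, 95% interval 0.02 to 0.65, limma adjusted p = 0.528). Its other probe set differed by 0.17. Gclm, the regulatory subunit, read 7.64, 8.53 and 8.34 against 8.02, 8.27 and 7.88, with the highest and the lowest value both among the knockouts. Its difference of 0.12 (SE 0.24, limma adjusted p = 0.937) turned to -0.06 without knockout 2. Gss, which completes glutathione, differed by 0.29 (SE 0.32), and Gsr, which reduces oxidised glutathione, by 0.03 (SE 0.13).

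In the thioredoxin system, Txnrd1 had groups that did not overlap and a small difference. Txnrd1, the cytosolic thioredoxin reductase and a known NRF2 target, read 11.43, 11.42 and 11.38 in knockout hearts against 11.29, 11.29 and 11.19 in control hearts. All knockouts lay above all controls, and the difference was 0.15 (SE 0.10, 95% interval -0.08 to 0.39, limma adjusted p = 0.744). Its dimmer probe sets 1424486_a_at and 1424487_x_at differed by 0.46 and 0.30 with overlapping groups. Txnrd2, the mitochondrial reductase, differed by 0.15 (limma adjusted p = 0.813), and all 4 of its probe sets were higher by sign, by 0.09 to 0.23, 2 of them with separate groups.

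The thioredoxins themselves had the smallest differences of the family, whose 5 genes were all higher by sign, but only 3 of them after a renewed quantile normalization. Txn1 of the cytosol had means of 11.53 ± 0.01 and 11.51 ± 0.02 (SD, n = 3 each), which differ by 0.01 (95% interval -0.21 to 0.24). Mitochondrial Txn2 read 11.28 in both groups (95% interval of the difference -0.35 to 0.36). Txnip, which binds thioredoxin and restrains glucose uptake, read 12.18, 12.26 and 11.96 in knockout hearts against 12.16, 11.99 and 12.15 in control hearts. Knockout 3 was the lowest of the 6 and knockout 2 the highest, and the difference was 0.03 (SE 0.12, limma adjusted p = 0.970). The other Txnip probe set, 1415997_at, spread widely, with control 1 at 7.49 and the other 5 mice from 8.73 to 9.45.

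Superoxide dismutases and catalase, which convert superoxide to hydrogen peroxide and hydrogen peroxide to water, differed by -0.07 to 0.11. Sod1 of the cytosol read 13.20 ± 0.07 against 13.27 ± 0.08 (SD, n = 3 each), and mitochondrial Sod2 read 12.65 ± 0.03 against 12.64 ± 0.10 (SD, n = 3 each). On 1 of its 4 probe sets, 1417194_at, Sod2 read 7.84, 7.88 and 7.80 against 8.20, 8.07 and 8.06, a difference of -0.27 (limma adjusted p = 0.494). On 1454976_at the groups of Sod2 were separate as well, with a difference of -0.11. Extracellular Sod3 read 8.68, 8.58 and 8.58 against 8.51, 8.49 and 8.53, groups that did not overlap with a difference of 0.11 (limma adjusted p = 0.836). Its other probe set had the opposite sign. Cat differed by 0.07 (SE 0.14). By sign 3 of these 4 genes were higher on their representative probe sets, with a median of 0.04. With the mean of each gene's probe sets 1 was higher and 3 lower, with a median of -0.08.

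The messages of NRF2 and Keap1 overlapped between the groups. Nfe2l2 read 10.39, 10.49 and 10.61 in knockout hearts against 10.10, 10.62 and 10.45 in control hearts, where control 1 was the lowest mouse and control 2 the highest. Its difference was 0.10 (SE 0.16, 95% interval -0.26 to 0.47, limma adjusted p = 0.911) and became -0.04 without control 1. Keap1 read 10.28, 9.87 and 10.09 against 9.71, 10.06 and 10, a difference of 0.16 (SE 0.15, limma adjusted p = 0.845) that was 0.05 without control 1, 0.06 without knockout 1 and 0.26 without knockout 2, and its dim second probe set differed by -0.26. NRF2 is regulated mainly through the stability of the protein, which these arrays do not measure.

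Nqo1 and Hmox1, the quinone reductase and the inducible heme oxygenase, are classical NRF2 targets. Nqo1 read 10.74, 10.86 and 10.67 in knockout hearts against 10.68, 10.59 and 10.41 in control hearts, overlapping only between knockout 3 and control 1. The difference was 0.20 (SE 0.12, 95% interval -0.08 to 0.48, limma adjusted p = 0.715). Hmox1 read 7.41, 7.36 and 7.48 against 7.22, 7.48 and 7.13, with control 2 level with knockout 3, and differed by 0.14 (SE 0.13, limma adjusted p = 0.833). Without control 3 the Hmox1 difference was 0.06 and that of Nqo1 0.12, and without control 2 that of Hmox1 was 0.24.

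The metallothioneins, small cysteine-rich proteins that bind zinc and copper, did not pass. Mt1 on 1422557_s_at read 12.06, 12.13 and 12.14 in knockout hearts against 11.62, 12.03 and 12.00 in control hearts. The groups were separate, by little except for control 1, and the difference was 0.23 (SE 0.14, limma adjusted p = 0.712), or 0.10 without control 1. The dimmer Mt1 probe set differed by -0.18. Mt2 read 10.41, 10.96 and 11.03 against 10.37, 10.93 and 10.63, overlapping groups with a difference of 0.16 (SE 0.21, limma adjusted p = 0.895). The Mt2 difference was 0.02 with control 1 left out and 0.04 or 0.08 with knockout 3 or 2 left out. Leaving out control 2 gave 0.30, and leaving out knockout 1 gave 0.36.

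**Figure D3:**
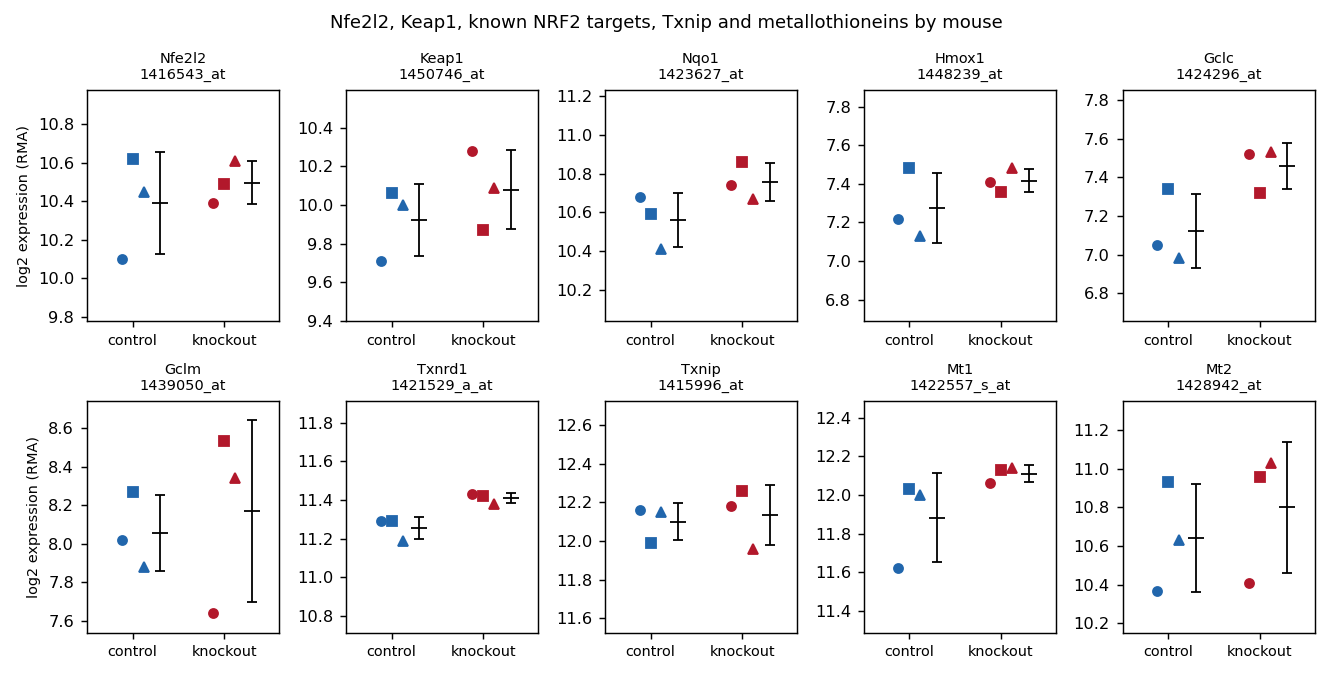
Log2 expression by mouse on the representative probe sets of Nfe2l2, Keap1, Nqo1, Hmox1, Gclc, Gclm, Txnrd1, Txnip, Mt1 and Mt2, each panel with its own axis; circles, squares and triangles are mice 1, 2 and 3, and black bars the mean and SD of each group. Only Txnrd1 and Mt1 show separate groups, and control 1 (blue circle) is the lowest mouse for Nfe2l2 (10.10), Keap1 (9.71), Mt1 (11.62) and Mt2 (10.37).

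A list of 85 further genes of the same systems was read beside these, of which 79 were measured, and none passed. The list was drawn up with earlier results of these data known. Its counts, and those of its groups, are therefore a description and not independent support. Over that list 9 genes were higher and 3 lower at an unadjusted limma p under 0.05, against 5.47% and 3.80% of all genes. Groups were separate and higher for 18 and separate and lower for 5, against 9.44% and 6.57% of all genes. The list divides into 5 groups, and 10 of those 18 genes were in the group of other NRF2 regulators and targets.

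Of the 22 measured genes in that group, 15 were higher and 7 lower by sign, with a median of 0.10, and the 10 whose groups did not overlap (45.5%) were all higher. This count was 8 with centred arrays, where 12.9% of all genes were separate and higher, and 8 with averaged probe sets, where 9.76% were. After a renewed quantile normalization it was 9, where 9.31% of all genes were. At an unadjusted limma p under 0.05 there were 5 of the 22 (22.7%), all higher, against 9.27% of all genes in either direction and 5.47% higher. Osgin1, an oxidative stress-induced growth inhibitor, read 7.58, 6.95 and 6.39 in knockout hearts against 5.30, 5.60 and 5.64 in control hearts. The knockouts were spread widely but all above the controls, with means of 6.97 ± 0.59 and 5.51 ± 0.19 (SD, n = 3 each). Osgin1 was 2.75-fold higher, a difference of 1.46 (SE 0.28, 95% interval 0.80 to 2.12, limma adjusted p = 0.156). Without any single mouse the difference was 1.16 to 1.75 (limma adjusted p from 0.132 to 0.402), and on knockout 3 and the controls alone it was 0.87.

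Ephx1, the microsomal epoxide hydrolase, read 11.10, 10.86 and 10.50 in knockout hearts against 10.03, 10.18 and 10.35 in control hearts, separate groups with a difference of 0.64 (SE 0.17, limma adjusted p = 0.309). Mafg, a small Maf partner of NRF2, read 9.43, 9.45 and 9.22 against 8.96, 8.91 and 8.87, a difference of 0.46 (SE 0.11, limma adjusted p = 0.260), and 0.25 on its other probe set. Knockout 3 was the lowest knockout for Osgin1, Ephx1 and Mafg. On knockout 3 and the controls alone Ephx1 differed by 0.32 and Mafg by 0.31. Those mice share the leading digits of their array description number, which the other knockouts lack, so the number goes partly with group. The part of that number in these differences was not tested. The other 7 separate genes, named after their values were seen, were Sqstm1 (0.42), an autophagy receptor that binds Keap1, Abcc4 (0.34), Mafk (0.25), Nfe2l1 (0.16), Aox1 (0.15), Bach1 (0.12), a repressor of NRF2 targets, and Blvra (0.09), with limma adjusted p from 0.381 to 0.873. Fth1, the ferritin heavy chain, differed by -0.01 and Blvrb by -0.47 with overlapping groups. When any single mouse was left out, 10 or 11 of the 22 were separate and higher, and 12 on the 4 arrays of knockout 3 and the controls, where separation is easier because fewer mice are compared. Over all genes the share separate and higher was then 13.2% to 19.0% with 1 mouse left out and 28.5% on the 4 arrays. Separate and lower genes of the list, 0 with all mice, numbered up to 2 with 1 mouse left out and 3 on the 4 arrays.

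**Figure D4:**
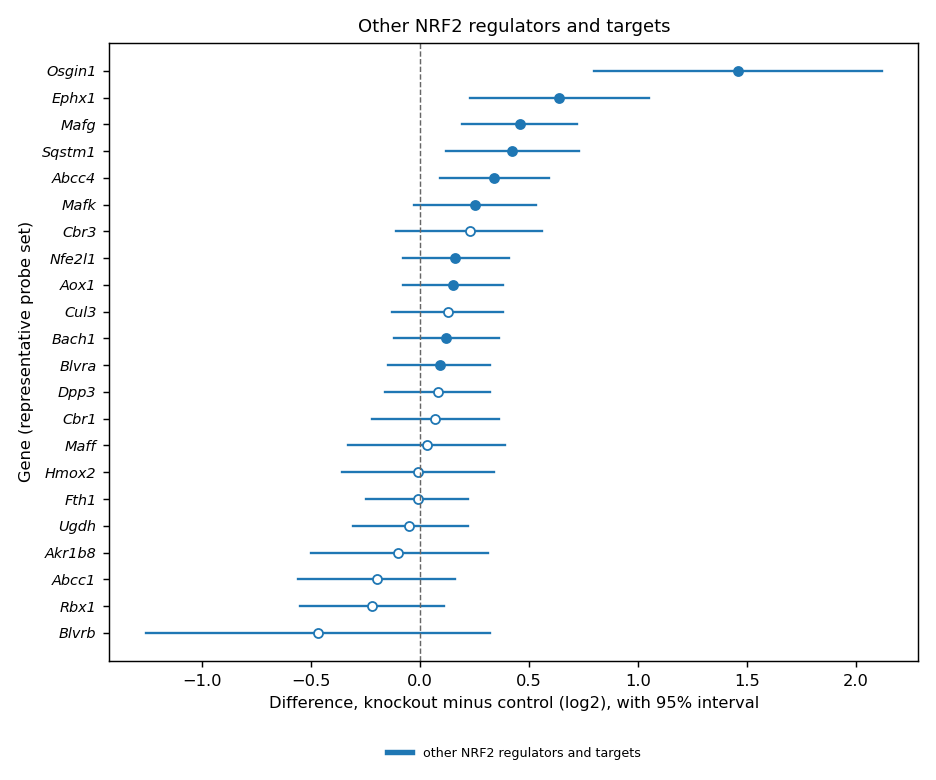
Difference in log2 expression, knockout minus control, for the 22 measured genes of the group of other NRF2 regulators and targets, with 95% intervals from limma. Filled points mark the 10 genes whose groups do not overlap, all of them higher in the knockout mice, from Osgin1 at 1.46 to Blvra at 0.09.

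Of 15 further transferase and peroxidase genes measured, 11 were higher and 4 lower by sign. Groups were separate and higher for 5 and separate and lower for 1, against 9.44% and 6.57% of all genes. Gsta2, an alpha class transferase and known NRF2 target, read 6.03, 5.41 and 4.93 in knockout hearts against 3.72, 4.40 and 3.96 in control hearts. Its groups were separate, and it was 2.69-fold higher, a difference of 1.43 (SE 0.29, 95% interval 0.74 to 2.11, limma adjusted p = 0.181), or 0.90 on knockout 3 and the controls alone. Gsto2 read 4.92, 4.73 and 4.81 against 4.28, 4.28 and 4.35, a difference of 0.51 (SE 0.11, limma adjusted p = 0.184). Gstm6 read 2.44, 2.66 and 2.32 against 2.99, 4.38 and 3.12, a difference of -1.02 (limma adjusted p = 0.432) that was -0.58 without control 2. Gsta2, Gsto2 and Gstm6 lie below 5.19, the median of all probe set means.

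Among genes of glutathione handling, Chac1, which breaks down glutathione in the cytosol, read 8.36, 8.64 and 7.81 in knockout hearts against 7.26, 7.40 and 7.14 in control hearts. All knockouts lay above the controls, a 2.00-fold difference of 1.00 (SE 0.21, 95% interval 0.51 to 1.5, limma adjusted p = 0.188), or 0.54 on knockout 3 and the controls alone. Ggct, a cyclotransferase that acts on gamma-glutamyl amino acids, had probe sets of opposite sign. The bright 1435695_a_at differed by -0.35, and the dimmer 1445855_at and 1429090_at by 0.77 and 0.28. Groups were separate on each of them (limma adjusted p = 0.514, 0.157 and 0.552). Glrx3, a glutaredoxin gene, was dim at 2.91 against 3.57 and differed by -0.66 (limma adjusted p = 0.352). Among enzymes that supply NADPH, Idh1 differed by -0.06, Idh2 by 0.07, Pgd by 0.06, Nnt by 0.06 and Me1 by -0.12, of which Idh2 had separate groups.

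Of 17 further thioredoxin, sestrin and methionine sulfoxide genes, none had separate groups. Sesn2 differed by 0.33 (limma adjusted p = 0.584), by 0.22 without knockout 1 and by 0.05 on knockout 3 and the controls alone. Mlxipl and Mlxip, sugar-responsive factors known to activate Txnip, differed by 0.46 (limma adjusted p = 0.622, 0.27 without knockout 1) and -0.13 (limma adjusted p = 0.832). Of 6 partners of metallothioneins and superoxide dismutases, Mt3 was dim and differed by 0.29 with separate groups (limma adjusted p = 0.596). The zinc importer Slc39a14 differed by -0.17 and Park7, a redox-sensitive chaperone, by 0.11. Mtf1, the zinc-sensing factor that drives the metallothionein genes, differed by 0.03.

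**Figure D5:**
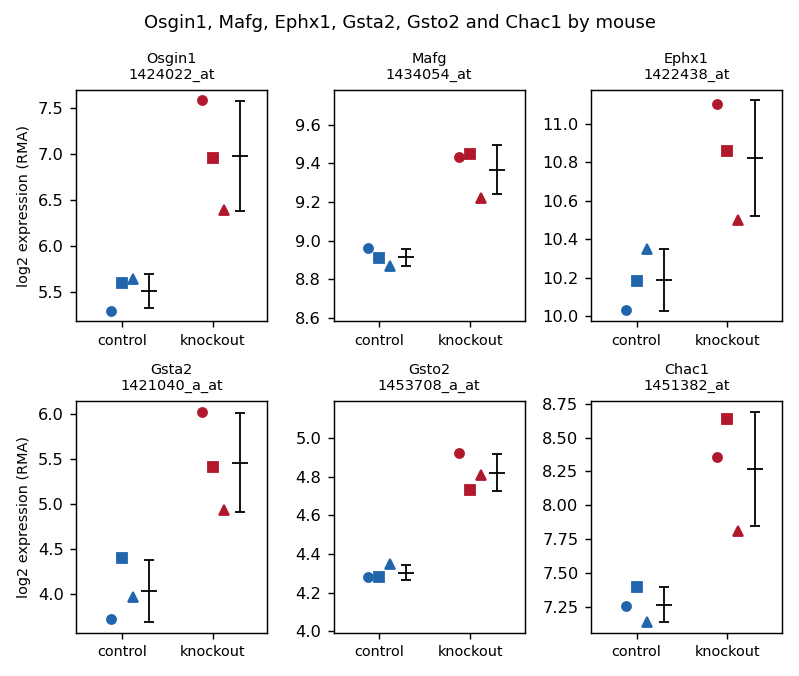
Log2 expression by mouse for Osgin1, Mafg, Ephx1, Gsta2, Gsto2 and Chac1, chosen from the further genes for their small p, each panel with its own axis; circles, squares and triangles are mice 1, 2 and 3, and black bars the mean and SD of each group. All knockout values lie above all control values in the 6 panels, and knockout 3 is the lowest knockout in all but Gsto2.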

How the data were processed

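The deposited values are log2 expression values that the authors made with RMA (background correction, normalization between arrays and summary of probes), per the submitters' processing notes; no RMA version was found in the sources used here. The log base was read from the range of the values. RNA was amplified and biotin-labelled with a NuGen Ovation kit, per the labels' protocols. RMA makes arrays alike in distribution, so a change in total RNA cannot be seen.

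The table holds 45101 probe sets, and the 64 for array controls were dropped. The platform annotation gave 1 gene for 34945, several for 932 and did not list 9160; symbols were updated by Entrez identifier (34741 found) with RefSeq's GRCm38.p6 table. Knockout and control mice were set against each other in limma 3.58.1 under R 4.3.3, with lmFit and eBayes and group as the only term, two-sided. The fit was tested on simulated data. The median SE of a difference was 0.147. Precision is limited by the number of mice.

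The genes and lists were chosen with earlier results of these data known. Per-mouse values are given for genes that passed, for those with an unadjusted p under 0.05 and separate groups, and for 11 genes named by that rule whatever their values (Srxn1 among them). Those of other genes, such as Gstm1, Sod3, Prdx2, Alas2 and Esr1, were added after they were seen; of each further list, the 3 with the smallest p are named.

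Samples are separate mice. Deviations of same-numbered mice had correlations of -0.151, -0.082 and -0.011, and those of differently numbered mice -0.182 to 0.204. With so few mice these values cannot exclude a pairing by number, and the main test did not pair the mice. Other settings in limma were array weights, a robust prior, a variance trend and a replicate block. Others dropped probe sets with means under the median or the 25th percentile, or used median centring or quantile normalization of the deposited values. Each mouse was left out in turn, a gene's probe sets were averaged, and a threshold of 0.1 was used. A last setting kept only the 4 arrays with the same leading digits in their description number, which are knockout 3 and the controls. The other knockouts lack those digits, so the number goes partly with group. What the number stands for was not established, and its part in the differences was not tested.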

Additional observations from a re-analysis of the deposited data

How the results depend on the processing

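No antioxidant gene passed in 16 of 17 other settings. The exception was the variance trend, with 1 gene and 1 probe set, both Gpx3. How many of all genes passed with that trend was not counted. None of the 79 further genes passed in any setting that tested them. The filters on probe set means left some of them out, such as Gsta2 under the median filter. The sign of the 29 named genes was not reversed in 451 of 458 differences, with Txnip at 0 under array weights counted among the 451. The variance trend, the robust prior, the replicate block and the filters on probe set means leave each difference as it was. Those comparisons could not reverse. Txnip was -0.14 on the 4 arrays that share leading digits of their description number, and with the mean of all probe sets Keap1 was -0.05 and Ggct 0.23. With 1 mouse left out, the ranges were -0.06 to 0.38 for Gclm, -0.03 to 0.12 for Txnip and -0.04 to 0.22 for Nfe2l2. The count of antioxidant genes with separate groups was 9 to 16 with 1 mouse left out, highest without control 1 and also above 1.5 times the main count without control 2 (15) and knockout 2 (13), and 17 on those 4 arrays. With centred arrays it was 12 (10 higher, 2 lower), where 16.8% of all genes were separate. Fewer mice make separation easier. Over all genes the share was 29.9% without control 1, 24.4% without control 2, 26.3% without knockout 2 and 48.5% on the 4 arrays. The count with an unadjusted limma p under 0.05 was 3 to 5 with 1 mouse left out, lowest without control 3. With the replicate block it was 3, no antioxidant gene passed, and the block changed no call. The share of all genes at that p was not counted in these settings. The median difference was 0.057 to 0.132 with 1 mouse left out. Low signal limits Gsta2, Gsto2, Gstm6, Glrx3, Mt3 and the dimmest probe sets of Srxn1 and Keap1, which lie below the median of all probe sets.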

Other observations

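Prdx1, the most studied cytosolic peroxiredoxin, has 5 probe sets that the annotation ties to Prdx1 and to the predicted gene Gm21399 together, so that their signal cannot be given to either. Their differences lay between -0.02 and 0.03 (smallest limma adjusted p = 0.964). On 1436691_x_at the knockout mice read 12.50, 12.62 and 12.62 and the controls 12.62, 12.47 and 12.56. These groups overlapped, as they did on the other 4 probe sets.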
